A study of Danio rerio with 30 samples.

Results

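The genes described here are the glucocorticoid receptor gene nr3c1 and 4 genes that glucocorticoids are known to induce, fkbp5, klf9, tsc22d3 and sgk1, measured in the spleen of adult zebrafish. They were chosen by name with their levels over the groups and their co-variation over fish in view, so those levels and differences are a description and carry no p. All 5 were among the 31901 genes of the count table, and all 5 passed the filter on low counts, which left 17841 genes. Their identifiers are ENSDARG00000028396 (fkbp5), ENSDARG00000068194 (klf9), ENSDARG00000075666 (tsc22d3), ENSDARG00000025522 (sgk1) and ENSDARG00000025032 (nr3c1). The read counts were made on the GRCz11 assembly, per the submitters' processing notes, and positions in the genome were not used here.

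Cortisol, made by the interrenal tissue of fish, enters cells and binds the glucocorticoid receptor, which Hsp90 and Hsp70 chaperones hold ready in the cytoplasm. The bound receptor moves to the nucleus, raises transcription of target genes and holds down inflammatory ones. In leukocyte-rich organs such as the spleen, this pathway is known for limiting cytokine production after a bacterial stimulus. Among the targets, fkbp5 encodes an Hsp90 co-chaperone that in mammals lowers the receptor's affinity for hormone, a negative feedback, and klf9 encodes a zinc finger transcription factor. The protein of tsc22d3, known in mammals as GILZ, restrains inflammatory transcription factors, and sgk1 encodes a kinase that regulates ion transport and cell survival.

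The study asked whether the temperature of early life affects the immune response of the adult. Embryos and larvae of the AB strain were raised at 24, 28 or 32 °C, adults of all groups were held at 28 °C, and spleens were taken at 100 days of age. At each temperature there were 5 control libraries and 5 from fish given lipopolysaccharide (LPS), a bacterial cell wall molecule that triggers innate immunity, here from Pseudomonas aeruginosa, as 2 µl of a 50 mg/ml solution into the body cavity under anaesthesia, 12 h before sampling. The labels name no transgene or mutation in any group. What the controls were given, the sex of the fish and the hour of sampling are not stated in the labels, so LPS cannot be told apart from injection and handling. The labels number the libraries of a group as separate samples, each read here as 1 fish, so a p-value reflects the spread over these libraries, which may in part be technical.

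The 30 libraries held 14840723 to 23401031 counts. Levels of single genes are in CPM, the reads of a gene relative to the library's total after scaling by the trimmed mean of M values (TMM), and marker sums are in CPM of the unscaled total. The spleen transcription factors TLX1 (79.8 to 326 CPM) and pbx1a (17.8 to 67.2 CPM), both also relative to the unscaled total, were detected in all libraries. 3 libraries stood apart: 24 °C control replicate 4 held acinar pancreas (58600 CPM), ovary (6680 CPM) and steroid synthesis (193 CPM) markers, 32 °C control replicate 8 held liver markers (6090 CPM), and 32 °C control replicate 2 had 28134 genes detected against at most 22887 elsewhere. Acinar pancreas markers were also high in 28 °C LPS replicate 8 (49200 CPM) and 28 °C control replicate 7 (32100 CPM), against a median of 2030 CPM over the 30 libraries. Markers of steroid-producing tissue, interrenal tissue included, summed to 1.66 to 8.08 CPM in the other 29 libraries. In the whole-tissue RNA used here, fewer cells of a type and less RNA per cell cannot be told apart.

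fkbp5 was low in all 5 control fish incubated at 24 °C and had a higher mean, with a wide spread between fish, in every other group. In the 24 °C controls its levels were 13.7, 21.0, 23.1, 24.2 and 30.2 CPM, a mean of 22.4 ± 5.96 (SD, n = 5). In the 24 °C LPS fish they were 116, 307, 341, 701 and 858 CPM, a mean of 464 ± 305. The LPS and control fish of this temperature did not overlap, and the lowest LPS fish lay above the highest control. In the 28 °C controls fkbp5 was at 93.5, 204, 462, 537 and 1042 CPM (468 ± 369), and in the 28 °C LPS fish at 10.9, 28.5, 212, 593 and 1374 CPM (444 ± 570.2). The LPS fish of 28 °C held both the lowest and the highest level of all 30 fish, 126-fold apart. In the 32 °C controls the levels were 72.9, 269.9, 316, 428 and 595 CPM (336 ± 193), and in the 32 °C LPS fish 19.9, 54.3, 56.6, 393 and 687 CPM (242 ± 291). Of the 25 fish outside the 24 °C controls, 3 lay at or below the highest 24 °C control: 28 °C LPS replicates 3 and 8 and 32 °C LPS replicate 2. In order of mean, 32 °C LPS, 32 °C control, 28 °C LPS, 24 °C LPS and 28 °C control fish followed the 24 °C controls, and each of these 5 groups differed from the next by less than the SD of either.

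klf9 had a similar spread and much the same low and high fish. Its levels were 4.08, 6.99, 8.41, 8.58 and 14.6 CPM in the 24 °C controls (8.53 ± 3.83, SD, n = 5) and 15.2, 28.9, 40.1, 60.9 and 80.2 CPM in the 24 °C LPS fish (45.1 ± 25.8). The groups were separate, with the lowest LPS fish just above the highest control. In the 28 °C controls klf9 was at 10.3, 13.6, 27.2, 42.9 and 107 CPM (40.2 ± 39.5), and in the 28 °C LPS fish at 1.92, 4.44, 19.9, 61.5 and 109 CPM (39.3 ± 45.6). Here, as for fkbp5, the 28 °C LPS fish spanned the whole range of the 30 fish. In the 32 °C controls klf9 was at 15.6, 28.4, 32.2, 35.7 and 36.0 CPM (29.6 ± 8.41), and in the 32 °C LPS fish at 1.95, 6.62, 12.0, 34.9 and 61.3 CPM (23.4 ± 24.7). At or below the highest 24 °C control were 7 of the other 25 fish, 5 of them given LPS at 28 or 32 °C. The group means from 23.4 to 45.1 CPM each differed from the next in order by less than the larger of the SDs.

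tsc22d3 varied less between fish, and its lowest group was again the 24 °C controls. In those 5 fish it was at 80.1, 108, 131, 174 and 183 CPM (135 ± 43.7, SD, n = 5). In the 24 °C LPS fish it was at 154, 215, 337, 345 and 385 CPM (287 ± 97.8). Here 1 LPS fish, replicate 8, lay among the controls, the same fish that was lowest of its group for fkbp5 and klf9. The levels were 243, 248, 254, 307 and 392 CPM in the 28 °C controls (289 ± 63.3) and 196, 240.0, 292, 344 and 466 CPM in the 28 °C LPS fish (308 ± 105). The highest tsc22d3 of all 30 fish, 466 CPM, was in 28 °C LPS replicate 8, where fkbp5 (28.5 CPM) and klf9 (4.44 CPM) were within their 24 °C control ranges. The pancreas content of that library is given above, and its part in this level was not tested; without the library the tsc22d3 difference between LPS and control at 28 °C was -0.11 in place of 0.09 on the log2 scale. The 32 °C controls were at 193, 222, 309, 365 and 383 CPM (294 ± 84.5) and the 32 °C LPS fish at 109, 149, 250.4, 256 and 269.8 CPM (207 ± 72.7). The 4 group means from 287 to 308 CPM differed by less than their SDs, and the 32 °C LPS mean of 207 CPM lay between them and the 24 °C controls.

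sgk1 had the smallest spread between fish of the 5 genes in all groups but the 32 °C controls, where its SD on the log2 scale (0.45) was above those of tsc22d3 (0.44) and nr3c1 (0.37). It was at 56.7, 57.6, 61.0, 72.4 and 73.8 CPM in the 24 °C controls (64.3 ± 8.21, SD, n = 5) and at 92.6, 113, 115, 119.8 and 121 CPM in the 24 °C LPS fish (112 ± 11.6), with no overlap. In the 28 °C controls it was at 106, 117, 149, 154 and 165 CPM (138 ± 25.4), the highest group mean. These 28 °C controls lay wholly above the 24 °C controls. sgk1 was at 94.9, 107, 111, 111 and 149.8 CPM in the 28 °C LPS fish (115 ± 20.7), 62.6, 112, 116, 116 and 146 CPM in the 32 °C controls (110.4 ± 30.1) and 80.2, 83.7, 113, 127 and 142 CPM in the 32 °C LPS fish (109 ± 26.8). Outside the 24 °C controls a single fish fell within their range, 32 °C control replicate 2, the library with the most genes detected. The means of the 4 groups between 109 and 115 CPM differed by less than their SDs.

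nr3c1, the receptor gene itself, did not share this order: its 24 °C controls had the second highest mean. Its levels were 102, 139, 162, 176 and 211 CPM in the 24 °C controls (158 ± 40.7, SD, n = 5) and 95.7, 109, 109.7, 111 and 151 CPM in the 24 °C LPS fish (115 ± 21.1). The ranges overlapped, and in all groups nr3c1 stayed within a 2.37-fold range over the 30 fish. It was at 95.8, 108, 123, 129.5 and 190.2 CPM in the 28 °C controls (129 ± 36.5) and 123, 129, 163, 183 and 202 CPM in the 28 °C LPS fish (160.0 ± 33.9). In the 32 °C controls it was at 96.9, 118, 157, 166 and 179 CPM (144 ± 34.7), and in the 32 °C LPS fish at 107, 113, 114, 155 and 227 CPM (143 ± 50.3). Each group mean differed from the next in order by less than its SD.

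**Figure D1:**
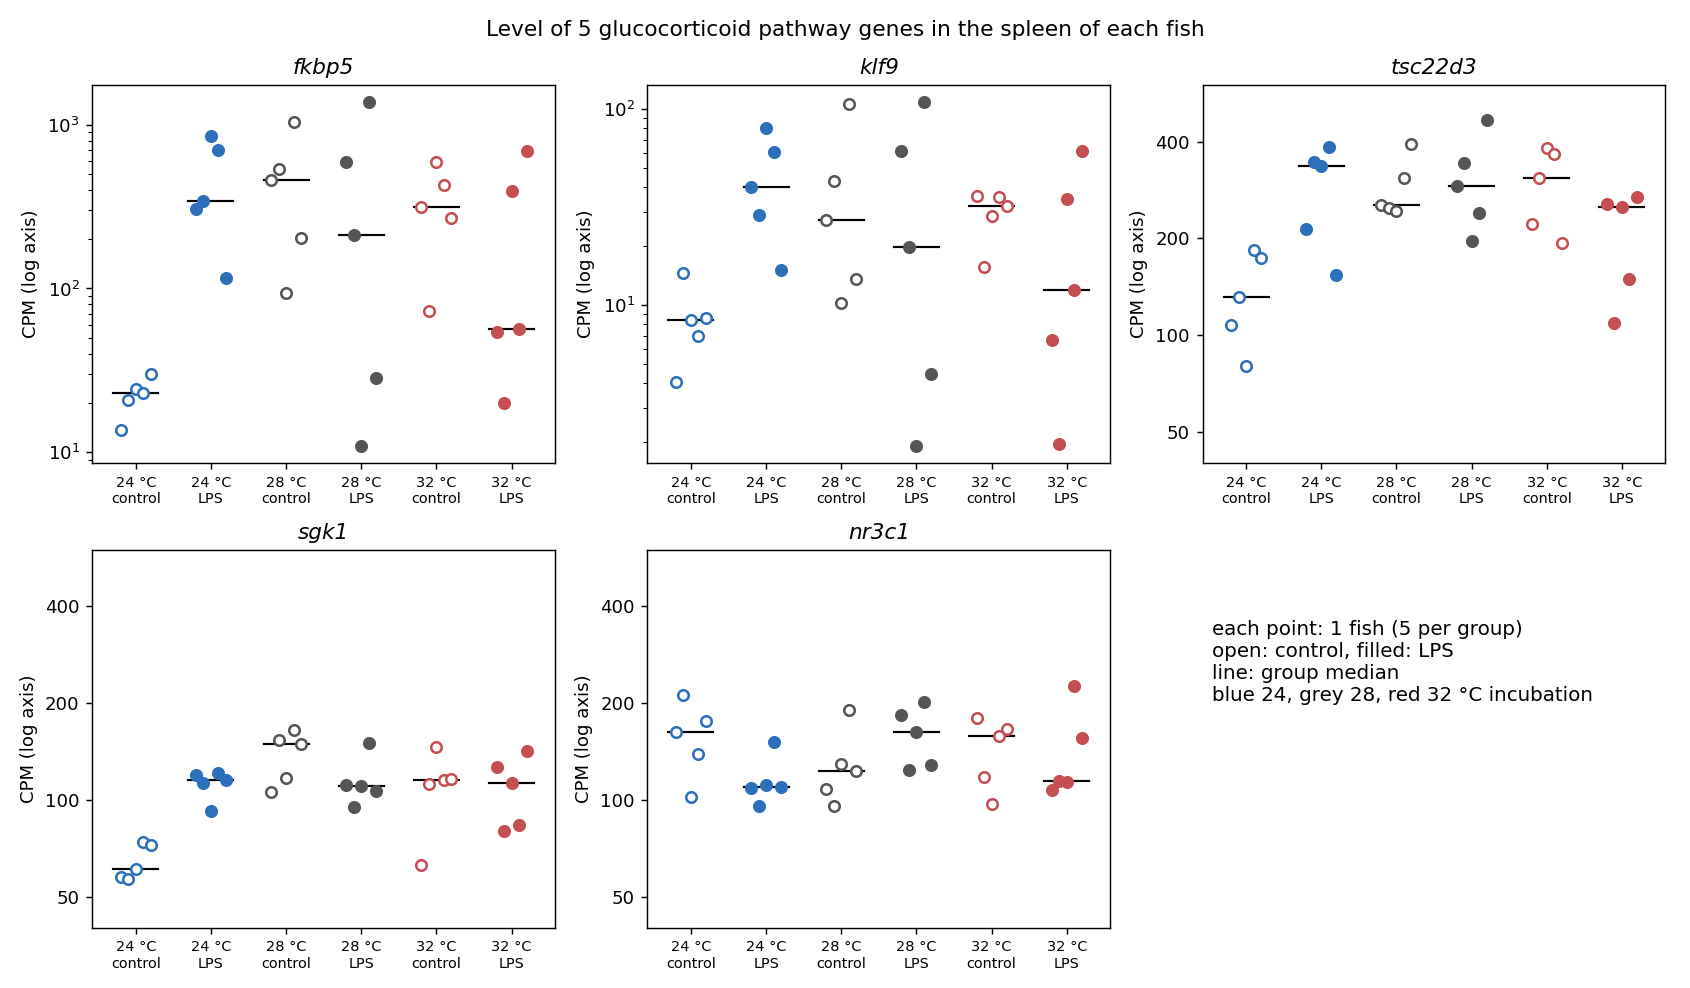
Level of each gene (CPM, log axes) in each of 30 fish, by incubation temperature and treatment, with the group median as a line; tsc22d3, sgk1 and nr3c1 share an axis range. The 24 °C controls sit low for fkbp5, klf9, tsc22d3 and sgk1, with fkbp5 between 13.7 and 30.2 CPM, while fkbp5 and klf9 spread widely among the LPS fish of 28 and 32 °C.

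At 24 °C the LPS fish had higher mean levels of fkbp5, klf9, tsc22d3 and sgk1 than the controls. At 28 and 32 °C the 95% intervals of the differences included 0, and they were wide for fkbp5 and klf9. The intervals at all 3 temperatures are not adjusted for the number of genes or comparisons. Nothing is read from which of them include 0. At 24 °C the fitted log2 difference, LPS minus control, was 4.37 ± 1.06 for fkbp5 (SE, 95% interval 2.196 to 6.546), a 20.7-fold higher level with LPS. klf9 differed by 2.40 ± 0.86 (5.28-fold), tsc22d3 by 1.08 ± 0.29 (2.12-fold) and sgk1 by 0.81 ± 0.19 (1.75-fold). The receptor gene nr3c1 had the opposite sign, -0.45 ± 0.23. At 28 °C the difference was -0.08 ± 0.92 for fkbp5 and -0.03 ± 0.81 for klf9, with 95% intervals of -1.97 to 1.81 and -1.70 to 1.63, so differences of 3-fold either way lay within them. tsc22d3 (0.09 ± 0.29), sgk1 (-0.27 ± 0.19) and nr3c1 (0.31 ± 0.23) had 28 °C differences whose 95% intervals all included 0. At 32 °C the values were -0.47 ± 0.92 for fkbp5, -0.34 ± 0.81 for klf9, -0.51 ± 0.29 for tsc22d3, -0.02 ± 0.19 for sgk1 and 0.00 ± 0.23 for nr3c1. The 95% interval of tsc22d3 there was -1.10 to 0.08, on the other side of 0 from its difference at 24 °C for the most part. A pooled estimate of spread enters these errors, while the SD of log2 fkbp5 ran from 0.42 in the 24 °C controls to 2.93 in the 28 °C LPS fish.

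Counts of members past a threshold are printed here and below, and nothing is read from them, because the 5 genes were chosen with these levels in view. For edgeR fitted to all 30 libraries, the share of all tested genes past the threshold stands beside the count. Counts with DESeq2 and other alternatives have no such share beside them, and edgeR's share is not their background. With edgeR's quasi-likelihood test and an adjusted p under 0.05 over all tested genes as the threshold, 0 of the 5 genes were called for LPS against control at 24, 28 or 32 °C, against a background of 0.0168%, 0.0112% and 0.00561% of all tested genes. Unadjusted p was under 0.05 for 3012, 1462 and 1314 genes. With DESeq2 3 of the 5 (fkbp5, tsc22d3 and sgk1) were called at 24 °C, a count given without DESeq2's share of all genes. In 3 of the 5 genes, fkbp5, klf9 and sgk1, every 24 °C LPS fish lay above every 24 °C control, as in 1.96% of all tested genes. Neutrophil marker sums were 710 to 1570 CPM in the 24 °C controls and 1480 to 2380 CPM in the 24 °C LPS fish, and their part in these differences was not tested.

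The second question is whether the LPS response differed by temperature. The response of sgk1 was 1.08 ± 0.26 higher at 24 than at 28 °C on the log2 scale, since its mean went up with LPS at 24 °C and down at 28 °C. Fits that each left out 1 library gave 1.04 to 1.26. By the threshold above 1 of 5 was past it, sgk1 (in 12 of 30 of those fits), and 0.751% of all tested genes were, a count from which, again, nothing is read. The other response differences, 24 minus 28 °C, were 4.45 ± 1.36 for fkbp5, 2.43 ± 1.17 for klf9, 0.99 ± 0.41 for tsc22d3 and -0.76 ± 0.32 for nr3c1. Between 32 and 28 °C they ran from -0.60 ± 0.41 for tsc22d3 to 0.25 ± 0.26 for sgk1, with 0 of 5 called against 0.112%. Between 32 and 24 °C they were -4.84 ± 1.37 for fkbp5, -2.74 ± 1.17 for klf9, -1.59 ± 0.41 for tsc22d3, -0.82 ± 0.26 for sgk1 and 0.45 ± 0.32 for nr3c1, with 0 of 5 called against 0.0224%. At an unadjusted p under 0.05 these comparisons held 1800 and 1766 genes. DESeq2 called 2 of the 5 (fkbp5 and tsc22d3) between 32 and 24 °C, a count given without DESeq2's share of all genes.

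Control fish incubated at 24 °C had lower mean levels of the 4 induced transcripts than those incubated at 28 °C. The log2 difference, 24 minus 28 °C, was -4.38 ± 1.06 for fkbp5 (95% interval -6.56 to -2.20), -2.23 ± 0.85 for klf9, -1.09 ± 0.29 for tsc22d3 and -1.10 ± 0.19 for sgk1, while nr3c1 stood at 0.29 ± 0.23. Past the threshold, with nothing read from the count, were 3 of the 5 (fkbp5, tsc22d3 and sgk1) and 2.47% of all tested genes. In the same 3 genes every 24 °C control lay below every 28 °C control, as in 2.07% of tested genes. These counts rest on single libraries. fkbp5 and tsc22d3 no longer passed without 24 °C control replicate 4 or 28 °C control replicates 2, 3, 5 or 7. tsc22d3 also did not pass without 24 °C control replicates 2 or 3 or 28 °C control replicate 1, or with only the groups compared. Over all leave-outs the differences were -4.69 to -3.92 for fkbp5, -1.23 to -0.96 for tsc22d3 and -1.23 to -1.07 for sgk1, which passed in each. Without the 3 libraries that stood apart the differences were -4.41 for fkbp5, -0.95 for tsc22d3 and -1.09 for sgk1, and sgk1 alone passed. Nothing is read from which genes passed, because they were chosen with these levels in view. Neutrophil marker sums did not overlap between these controls either (710 to 1570 CPM at 24 °C and 2060 to 2950 CPM at 28 °C), and their part in the difference was not tested.

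The 32 °C controls had levels of fkbp5, klf9, tsc22d3 and sgk1 nearer to the 28 °C than to the 24 °C controls. Against 28 °C they differed by -0.47 ± 0.92 for fkbp5, -0.44 ± 0.81 for klf9, 0.03 ± 0.29 for tsc22d3, -0.32 ± 0.19 for sgk1 and 0.15 ± 0.23 for nr3c1, with 0 of 5 called against 0.633% (2575 genes at an unadjusted p under 0.05). Against 24 °C they were higher by 3.90 ± 1.04 for fkbp5, 1.79 ± 0.84 for klf9, 1.12 ± 0.29 for tsc22d3 and 0.78 ± 0.19 for sgk1, and nr3c1 stood at -0.14 ± 0.23. Here 0 of 5 were called with edgeR against 0.0224% (2806 genes at an unadjusted p under 0.05). With DESeq2 3 (fkbp5, tsc22d3 and sgk1) were called, again without DESeq2's share beside the count. In fkbp5, klf9 and tsc22d3 every 32 °C control lay above every 24 °C control, as in 0.992% of tested genes. All contrasts with the 24 °C controls rest on the same 5 fish, so the LPS difference at 24 °C and the temperature differences among controls are not independent.

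Among LPS fish the 95% intervals of the differences between temperatures included 0 for fkbp5, klf9, tsc22d3 and sgk1. For nr3c1 the interval between 24 and 28 °C ended just below 0 (-0.94 to -0.003), and its others included 0. These intervals are not adjusted for the number of genes or comparisons, and nothing is read from which of them include 0. The nr3c1 means were 115 ± 21.1 CPM in LPS fish of 24 °C and 160.0 ± 33.9 CPM in those of 28 °C. The differences, 24 minus 28 °C, were 0.07 ± 0.92 for fkbp5, 0.20 ± 0.81 for klf9, -0.10 ± 0.29 for tsc22d3, -0.03 ± 0.19 for sgk1 and -0.47 ± 0.23 for nr3c1. LPS fish of 32 °C differed from those of 28 °C by -0.87 ± 0.93 for fkbp5 and by -0.57 ± 0.29 for tsc22d3, and from those of 24 °C by -0.94 ± 0.93 and -0.47 ± 0.29. The 95% intervals for fkbp5 (-1.82 to 1.96, -2.78 to 1.03 and -2.85 to 0.97) leave room for differences of several-fold. In these 3 comparisons 0 of 5 genes and 0% of all tested genes were called with edgeR, with 1594, 732 and 754 genes at an unadjusted p under 0.05.

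**Figure D2:**
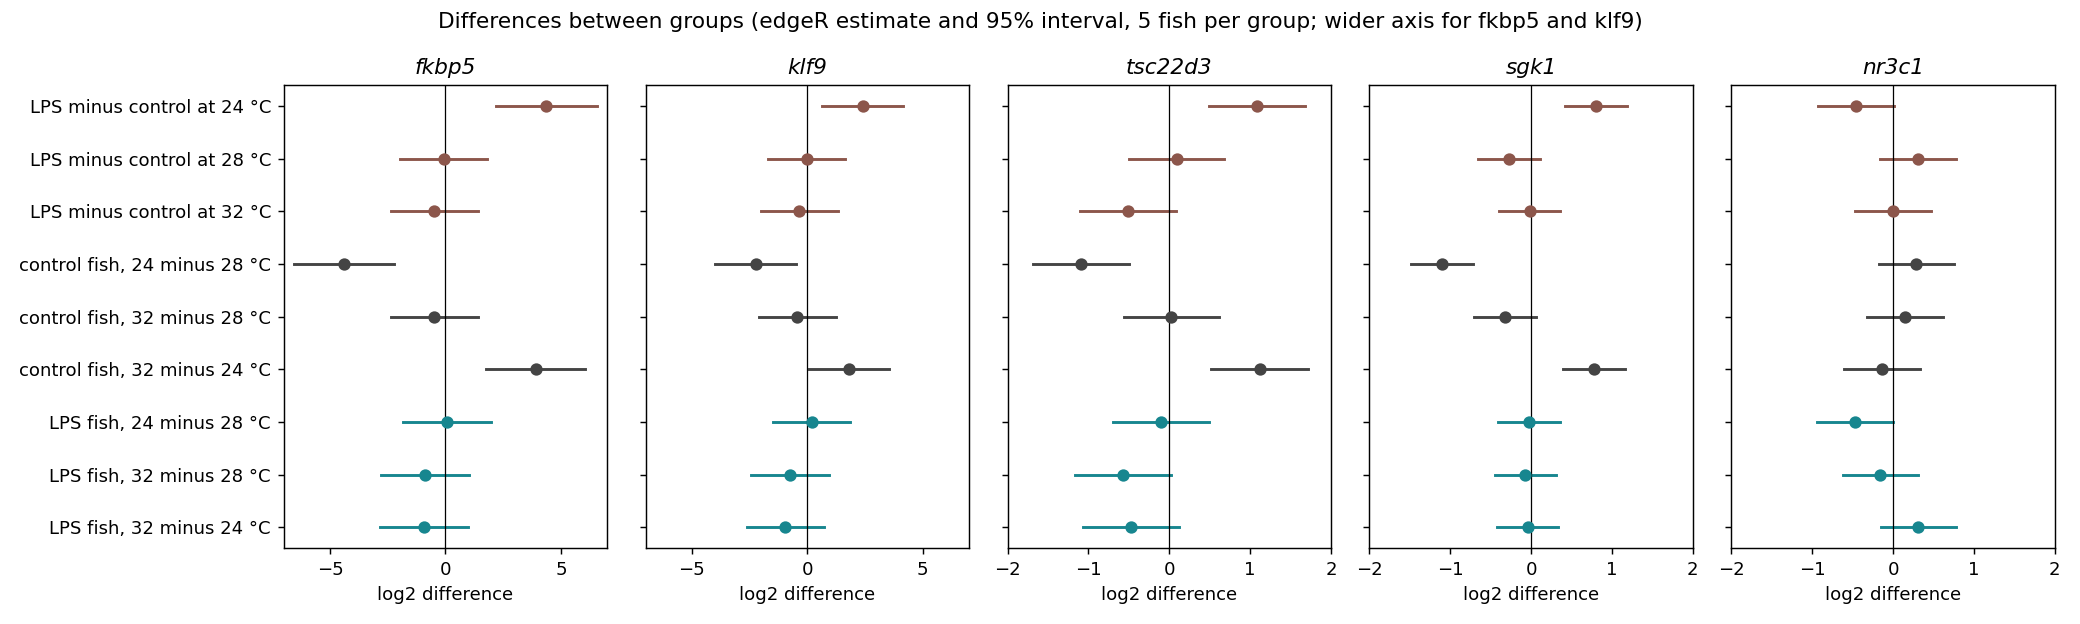
Fitted log2 differences between groups (points, edgeR) with 95% intervals (bars) for each gene, in 9 comparisons of 5 against 5 fish; fkbp5 and klf9 have a wider axis. fkbp5 stands at 4.37 for LPS at 24 °C and at -4.38 for 24 against 28 °C controls, and between -0.94 and 0.07 in the comparisons without the 24 °C controls.

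The fish-to-fish spread of fkbp5 and klf9 was large for genes of their abundance. The pooled SD within groups was 1.72 for log2 fkbp5, above that of 97.6% of the 627 tested genes within 2-fold of its mean level, and 1.48 for log2 klf9, above that of 98.2% of 4786 such genes. For tsc22d3 it was 0.48, for sgk1 0.30 and for nr3c1 0.36, against a median of 0.54 over all tested genes. Among genes within 2-fold of their own mean levels, tsc22d3 lay above 71.8% of 876. By the same measure sgk1 lay above 39.7% of 2237 and nr3c1 above 54.9% of 1746. Counts of 137 to 21142 for fkbp5 and 24 to 1975 for klf9 per library lie behind these values.

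Within groups, fkbp5 and klf9 varied together. Their deviations from the group mean, in log2 CPM over 30 fish, had Pearson r = 0.956 and Spearman rho = 0.914. Of the 17840 other tested genes klf9 ranked first for fkbp5, and fkbp5 ranked 2 for klf9. Leaving out any 1 library gave r from 0.943 to 0.967, leaving out the 2 fish farthest from the median of fkbp5 gave 0.935, and leaving out the 24 °C controls, a choice made after seeing the data, gave 0.966. It was 0.826 in control fish and 0.986 in LPS fish, and 1 log2 unit of fkbp5 went with 0.82 of klf9. The values share library and scaling. No p is given, and r and ranks are a description, because the pair was selected on its co-variation. The remaining pairs were weaker: r was 0.338 for fkbp5 with tsc22d3, 0.377 for fkbp5 with sgk1, 0.212 for fkbp5 with nr3c1 and 0.397 for tsc22d3 with sgk1. tsc22d3 with nr3c1 (-0.08) and sgk1 with nr3c1 (-0.10) lay near 0. With the group differences left in, r rose to 0.612 for fkbp5 with tsc22d3 and to 0.652 for fkbp5 with sgk1.

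**Figure D3:**
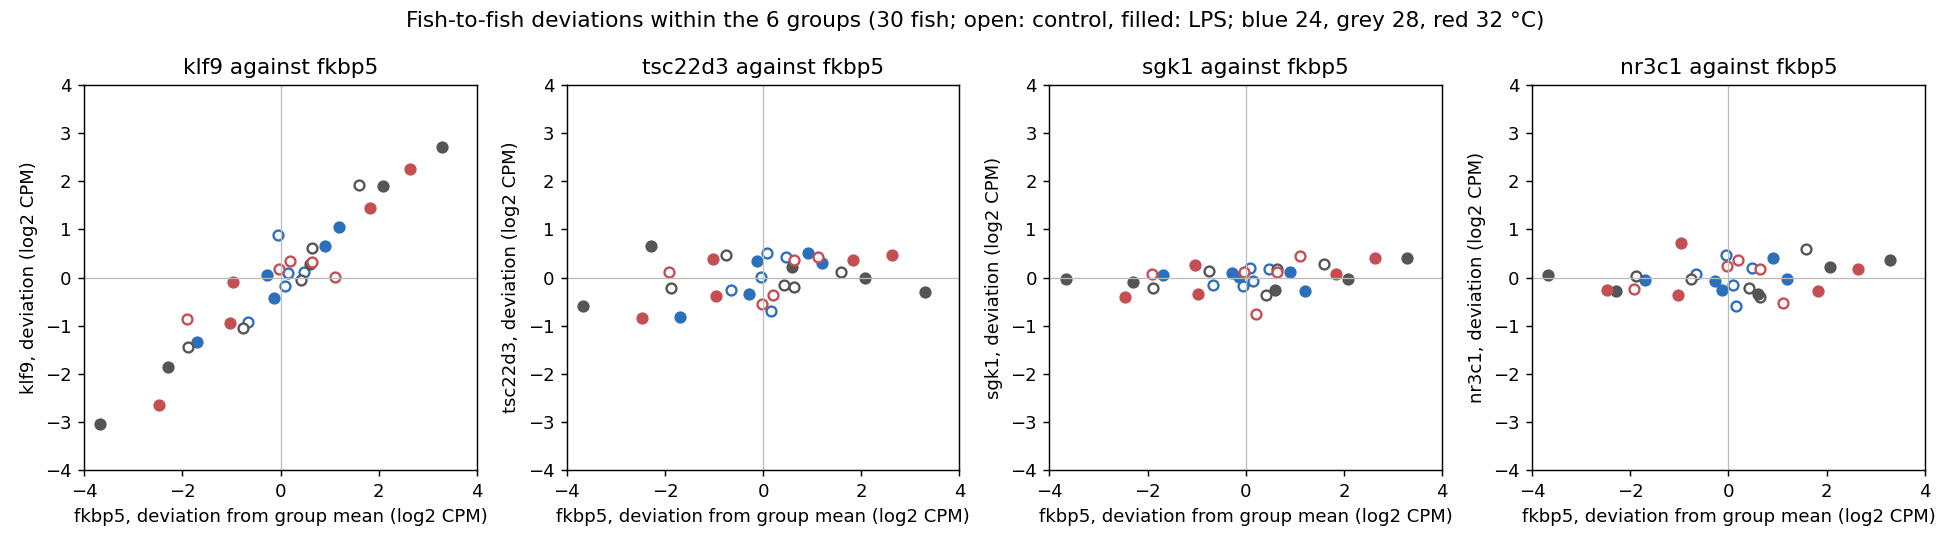
Deviation of each fish from its group mean (log2 CPM), fkbp5 on the x axis and klf9, tsc22d3, sgk1 or nr3c1 on the y axis, for 30 fish. klf9 follows fkbp5 along the diagonal (r = 0.956), with the extremes among LPS fish of 28 and 32 °C, and the other 3 genes vary little along it.

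The genes most like each member by this measure differed between members. They are named among genes of at least 5 CPM without clone names. A gene outside that rule ranked above some of them, as above CXCR4, which ranked 2 of all tested genes for tsc22d3. Some symbols are those of human orthologues in the table of names. Next to klf9, fkbp5 was most like pik3r3a, a regulatory subunit of phosphoinositide 3-kinase (r = 0.903), and SLC20A1, a sodium-phosphate transporter (r = 0.886). Those genes also followed klf9, at 0.898 and 0.905, and had LPS differences at 24 °C of 1.08 and 1.28 on the log2 scale. tsc22d3 was most like CXCR4 (ENSDARG00000041959), a chemokine receptor (0.862), the G protein subunit GNG5 (0.789) and the syntaxin stx2a (0.772). sgk1 had no gene above 0.8, and was most like the phosphatase ptp4a2b (0.743), the mitochondrial carrier SLC25A33 (0.735) and DESI1 (0.722). nr3c1 was most like NR1D2, the nuclear receptor Rev-erb beta (0.947), DENND4C (0.942) and FRYL (0.937), and 364 genes, 2.04% of those tested, had r above 0.8 with it, against 10 for fkbp5 and 13 for klf9.

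Marker sums of cell types were set beside these deviations. nr3c1 followed the erythroid marker sum (r = 0.838, rho = 0.835) and went against those of B cells (-0.67), macrophages (-0.58) and neutrophils (-0.53). Erythroid sums had medians of 91700 CPM in 24 °C controls, 52500 in 24 °C LPS fish, 51400 in 28 °C controls and 113000 in 28 °C LPS fish, the same order as the means of nr3c1 within 24 and within 28 °C, and their part in the nr3c1 differences was not tested. fkbp5 and klf9 had r of 0.08 and 0.19 with erythroid sums, -0.34 and -0.42 with neutrophil sums and -0.37 and -0.45 with B cell sums. The r of sgk1 with the number of genes detected was -0.617 (rho = -0.488), and it was -0.254 without 32 °C control replicate 2, so it rests largely on that library. For nr3c1 the r with genes detected was -0.154 (rho = -0.525), and it was -0.829 without the same library. The r of nr3c1 with the library's total counts was -0.453. The part of these library measures in the nr3c1 levels was not tested.

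**Figure D4:**
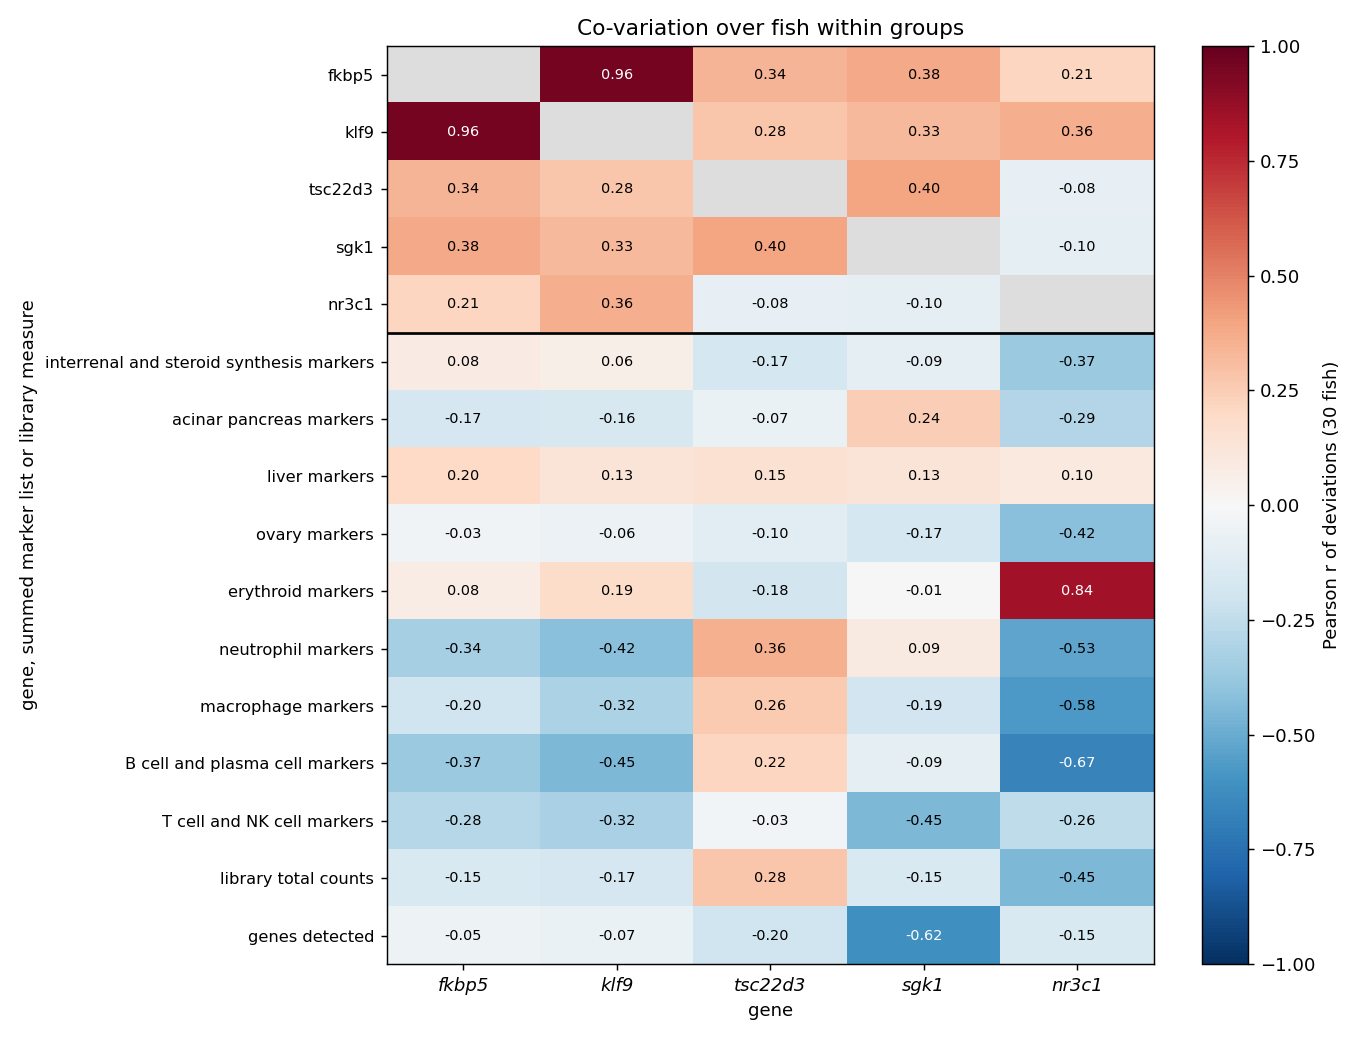
Pearson r, over 30 fish, of deviations from group means between the 5 genes (top rows) and between each gene and summed cell type markers or library measures (lower rows). Red marks positive and blue negative values; fkbp5 with klf9 (0.956) and nr3c1 with erythroid markers (0.838) are the darkest.

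The other genes of the pathway were tested as lists. Genes upstream of these targets are the hormone-converting enzymes, receptors, chaperones and cofactors. For LPS against control, 0 of 33 tested passed with edgeR at any temperature (7, 4 and 3 at an unadjusted p under 0.05 at 24, 28 and 32 °C, and 1, 0 and 0 with DESeq2). Of all tested genes only 0.0168%, 0.0112% and 0.00561% passed with edgeR, so nothing is read from that 0. The list's median log2 difference at 24 °C was 0.13 against -0.12 over all genes. The abundant chaperones HSPA8 (ENSDARG00000068992) and HSP90AB1 had LPS differences at 24 °C of 0.11 ± 0.17 and 0.18 ± 0.13 (edgeR adjusted p = 0.791 and 0.483). The co-repressor NCOR1 had -0.39 ± 0.16 (adjusted p = 0.212). Between 24 and 28 °C controls, 2 of 33 were higher at 24 °C, against 2.47% of all tested genes called in either direction: nrip1b, a nuclear receptor cofactor (1.102 ± 0.23, adjusted p = 0.0269), and a second HSPA8 locus (ENSDARG00000037403; 3.79 ± 1.05, adjusted p = 0.0476). In 24 °C control replicate 4 nrip1b was at 32.0 CPM against 11.9 to 14.5 in the others, and that HSPA8 locus at 15.9 CPM against 0.0431 to 0.725. Neither was called without that library, without 28 °C control replicates 2, 3 or 7, with voom, with only the groups compared or with the replicate block, and 1 was in 18 of the other fits that left out 1 library. The response of nrip1b also differed between 24 and 28 °C (-1.41 ± 0.32, adjusted p = 0.0401), the 1 of 33 called there against 0.751% of all tested genes. That count was 0 in 14 of the 30 fits that left out 1 library: 24 °C control replicates 3 or 4, 24 °C LPS replicates 1, 2, 3 or 8, any 28 °C control, or 28 °C LPS replicates 1, 3 or 4.

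Other genes that glucocorticoids are known to induce were tested as a list of 38. With LPS at 24 °C, 0 of 38 passed with edgeR (8 at an unadjusted p under 0.05, and 4 with DESeq2), and 23 had differences above 0 (median 0.22 against -0.12 over all genes). Between 24 and 28 °C controls 4 fell below the 28 °C level and 0 rose, against 2.47% of all tested genes called in either direction: the NF-kappaB inhibitors nfkbiab (-1.16 ± 0.25, edgeR adjusted p = 0.0269) and nfkbiaa (-1.55 ± 0.33, adjusted p = 0.0269), the transcription factor CEBPD (-1.32 ± 0.33, adjusted p = 0.0323) and the interleukin-6 receptor il6r (-0.91 ± 0.25, adjusted p = 0.0493). The list's median there was -0.27, against 0.11 over all genes. Inflammatory signals are also known to induce nfkbiab, nfkbiaa and CEBPD. The count was 0 with voom, with only the groups compared, with the replicate block and without the 3 libraries that stood apart. It was also 0 without 24 °C control replicate 4 or 28 °C control replicates 2 or 7, 1 without 28 °C control replicate 3 and 2 without 28 °C control replicate 5. Calls over all tested genes moved as well, from 440 in the main fit to between 5 and 753 when 1 library was left out. Of the abundant genes of the list, CEBPB stood at -1.09 ± 0.36 (adjusted p = 0.0906) and foxo3a at 0.45 ± 0.38 (adjusted p = 0.536). IRS2 (ENSDARG00000075282), the insulin receptor substrate, had a higher LPS response at 24 than at 28 °C (1.62 ± 0.32, adjusted p = 0.0224). It was the 1 gene of 38 called in that comparison, against 0.751% of all tested genes, and the call was lost without 28 °C LPS replicates 1 or 4. Over fish within groups, the median r of the 38 genes with fkbp5 was 0.12, against -0.01 over all tested genes.

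The relatives of the members, other FKBP, KLF, TSC22, SGK and steroid receptor genes, were tested as a list of 31. Of these 0 passed with edgeR in any of the 12 comparisons, with 1 to 6 at an unadjusted p under 0.05 and 0 to 1 with DESeq2. Of all tested genes at most 2.47% passed with edgeR in any of these comparisons, so nothing is read from that 0. The most abundant, fkbp1aa, klf2b, klf2a and KLF6, had LPS differences at 24 °C of 0.52 ± 0.21, -0.02 ± 0.23, 0.14 ± 0.19 and 0.24 ± 0.15 (adjusted p = 0.217, 0.973, 0.747 and 0.426).

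Inflammatory genes that glucocorticoids are known to hold down were set beside the members. With LPS, 22 of 24 had differences above 0 at 24 °C (median 0.93), 1 of 24 at 28 °C (median -1.23) and 20 of 24 at 32 °C (median 0.59), against medians over all genes of -0.12, 0.02 and -0.02. Neutrophil markers moved the same way: 14 of 16 had LPS differences above 0 at 24 °C (median 0.74), 1 of 16 at 28 °C (-0.64) and 13 of 16 at 32 °C (0.53), with 0 of 16 called by edgeR (6, 7 and 4 at an unadjusted p under 0.05), and their part in the inflammatory differences was not tested. With edgeR 0 of the 24 passed at any temperature (10, 13 and 4 at an unadjusted p under 0.05 at 24, 28 and 32 °C, and 0, 2 and 0 with DESeq2). Between 24 and 28 °C controls 6 of 24 fell and 0 rose, against 2.47% of all tested genes called in either direction, among them the chemokine cxcl8a (-2.40 ± 0.51, edgeR adjusted p = 0.0269), the chemokine cxcl11.1 (-3.45 ± 0.80, adjusted p = 0.0280), the cytokine tnfb (-1.73 ± 0.38, adjusted p = 0.0269) and PTGS2, the inducible cyclooxygenase (-1.88 ± 0.51, adjusted p = 0.0436). tnfa (-2.32 ± 0.58, adjusted p = 0.0338) and il12bb (adjusted p = 0.0270), which had 0 or 1 count in every 24 °C control, were the other 2. The count was 0 with voom, with only the groups compared, with the replicate block, without the 3 libraries that stood apart, and without 24 °C control replicate 4 or 28 °C control replicates 2, 3 or 7. Over all tested genes, 5 to 753 were called when 1 library was left out (440 in the main fit). Of the 16 neutrophil markers, 4 fell and 0 rose in the same comparison (median -0.96), against the same 2.47%. Between 32 and 28 °C controls 3 fell and 0 rose (median -1.20), against 0.633% of all tested genes called in either direction. Against 28 °C controls, the 24 °C controls had lower mean levels of fkbp5, klf9, tsc22d3 and sgk1, and also of these 6 inflammatory genes. Between 32 and 28 °C controls fkbp5 differed by -0.47 ± 0.92 and klf9 by -0.44 ± 0.81. tsc22d3 differed there by 0.03 ± 0.29 and sgk1 by -0.32 ± 0.19. In that comparison 23 of the 24 list genes had differences below 0 (median -1.29, 12 at an unadjusted p under 0.05). Between 24 and 28 °C controls 22 of 24 did (median -1.46, 13 at an unadjusted p under 0.05). A relation of the members to these differences was not tested. Of the 24, cxcl8a alone was called between 32 and 28 °C controls (-2.45 ± 0.52, edgeR adjusted p = 0.0287), against 0.633% of all tested genes. That call was lost without 28 °C control replicates 2, 3, 5 or 7 or 32 °C control replicates 2 or 3. The response of 5 of the 24, cxcl8a, cxcl11.1, tnfb, PTGS2 and il12bb, was called higher at 24 than at 28 °C. Of all tested genes 0.751% were called there in either direction. The list's count was 0 without 24 °C control replicate 4, 28 °C control replicate 2 or 28 °C LPS replicates 1 or 4. The abundant ccl34a.4, sele and MMP9 did not pass in that comparison (adjusted p = 0.108, 0.129 and 0.683).

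Within groups the inflammatory genes went with the members unequally. Of the 24, 4 had r above 0 with fkbp5, 3 with klf9 and 4 with nr3c1 (median r -0.20, -0.19 and -0.16). With tsc22d3 15 did (0.09) and with sgk1 17 (0.20). Over all tested genes the share above 0 was 48.8% for fkbp5, 47.5% for klf9, 45.8% for tsc22d3, 48.6% for sgk1 and 45.1% for nr3c1. These are correlations over 30 fish of genes that share libraries and vary together, so the counts are a description.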

How the data were processed

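Spleen RNA was poly(A)-selected and made into strand-marking libraries, per the labels' protocols. Per the submitters' processing notes, STAR, DESeq2 1.11.1, cutadapt 1.12, bcl2fastq and FastQC 0.11.5 were used on the GRCz11 build. The sources used here name no counting program, annotation or strand setting. Overlapping and antisense genes may therefore share reads. The authors deposited 1 table of raw, unnormalised read counts for 31901 gene IDs, of which 29178 had a symbol in the table of names.

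edgeR 4.0.16 (R 4.3.3) was run with filterByExpr, TMM and 1 mean per group over the 30 libraries, which left 24 residual degrees of freedom and gave a common biological coefficient of variation of 0.503. Contrasts were tested by robust quasi-likelihood F tests, adjusted by Benjamini-Hochberg over 17841 genes. An SE is the size of the log2 difference over the square root of F. Correlations used log2 CPM (prior count 2) as deviations from group means. The pipeline was tested on simulated data.

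Named were the 5 genes, the 3 genes most like each (at least 5 CPM, no clone names), the 4 most abundant genes of each pathway list and those called. A gene that this rule names is not reported here. The members and lists were chosen with earlier results of these data known. Lists were matched by symbol, and fkbp4 and nr3c2 stood on a pair of them. Chi-square tests found every pair of libraries within a group to differ beyond sampling noise (at least 31.7 per degree of freedom, 60 pairs).

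The alternatives tried were size factors of DESeq2, TMM computed without erythroid or abundant genes, 2 other filters (none, or 1 CPM in 5 libraries), the tests of DESeq2 1.42.0 and of limma voom 3.58.1 with quality weights, fitting only the groups compared, the replicate number as a block, and leaving out libraries. Correlations in subsets of fish were added after seeing the data.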

Additional observations from a re-analysis of the deposited data

Results flagged for a closer look

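In groups of 5 fish, 108 sets of values (18 genes in 6 groups) were searched for a fish far from the others, which chance gives in about 1 of 20 groups, and 6 were found. nr3c1 in 24 °C LPS replicate 4 was at 151.4 CPM, against 95.72 to 111.3 in the other 4. nrip1b in 24 °C control replicate 4 was at 32.03 CPM, against 11.86 to 14.46, and HSPA8 (ENSDARG00000037403) in the same fish at 15.94 CPM, against 0.04311 to 0.725. tnfa in 32 °C control replicate 6 was at 0.8063 CPM, against 3.446 to 4.273. il12bb was at 0 CPM in 24 °C control replicate 8, against 0.04311 to 0.05293, which is 0 counts against 1 count in each other fish and within counting error, and at 2.092 CPM in 32 °C LPS replicate 5, against 0 to 0.5516.

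The LPS response was called different between 24 and 28 °C in 7 of the list genes described, with edgeR's test of the difference itself, which called 0.751% of all tested genes. Only list genes already called in some comparison were searched, so nothing is read from the 7. In log2 units, 24 minus 28 °C, nrip1b differed by -1.406 (no gene of its list was called in 14 of the 30 fits that left out 1 library), IRS2 by 1.622, cxcl8a by 3.273, cxcl11.1 by 4.652, tnfb by 2.484 and PTGS2 by 3.013. il12bb differed by 6.907, a fitted value that depends on the prior count because the 24 °C controls were at or near 0. The calls of IRS2 and of the inflammatory genes were lost without 28 °C LPS replicates 1 or 4. Those of the inflammatory genes were also lost without 24 °C control replicate 4 or 28 °C control replicate 2.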

How the results depend on the processing

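Of 2340 differences of the 5 genes over 39 alternatives, 2339 moved by less than the SD between single fish, which is wide for fkbp5 and klf9. The exception was fkbp5 between LPS fish of 24 and 28 °C, at 1.807 with voom (0.07 in the report). That SD is a lenient yardstick, since 30 of the alternatives left out only 1 library, and nothing is read from the 2339. By over 1.5-fold 46 differences moved (19 of fkbp5, 27 of klf9). Voom also gave -1.586 for fkbp5 with LPS at 28 °C (-0.08) and 0.74 between LPS fish of 32 and 28 °C (-0.87), and the block -1.619 for klf9 with LPS at 32 °C (-0.34). Without 28 °C LPS replicate 4 those fkbp5 values were, in that order, 1.103, -1.125 and 0.18. r of fkbp5 with klf9 was 0.826 in control fish and 0.986 in LPS fish. Counts of called genes moved more, and the cause was not tested.

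Members called in 24 against 28 °C controls were 2 with only the groups compared and 1 with voom, with the replicate block and without the 3 libraries that stood apart (3 in the report). For LPS at 24 °C they were 3 with DESeq2 and 1 with only the groups compared. For the response between 24 and 28 °C they were 0 with no filter and 2 with DESeq2. DESeq2 also called 2 for the response between 32 and 24 °C and 3 in 32 against 24 °C controls. Leaving out each library gave 0 to 2 for LPS at 24 °C, 0 to 1 for that first response and 1 to 3 in those first controls. These member counts are given without each alternative's share of all tested genes, and nothing is read from them.

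For the upstream, other induced and inflammatory lists, in that order, DESeq2 called 4, 8 and 12 in 24 against 28 °C controls (2, 4 and 6 in the report) and 3, 5 and 10 for the response between 24 and 28 °C (1, 1 and 5). Voom, only the groups compared, the replicate block and leaving out the 3 libraries each gave 0, 0 and 0 in these controls. For the response, voom gave 2, 4 and 3, and only the groups compared gave 0 and 3 for the first pair. The block gave 3 for other induced and 2 for inflammatory genes, and leaving out the 3 libraries gave 0 inflammatory genes. With no filter 0 upstream and 1 inflammatory gene had a different response, and 1 upstream gene differed in controls. The stricter filter gave 3 other induced genes in response and 1 upstream gene in controls. For LPS at 24 °C DESeq2 called 1 upstream and 4 other induced genes, and the block 1 of the latter. Leaving out each library gave 0 to 3, 0 to 5 and 0 to 7 in controls, 0 to 2, 0 to 4 and 0 to 6 in response, and 0 to 1, 0 to 3 and 0 to 1 for LPS at 24 °C. For inflammatory genes it gave 0 to 3 for the response between 32 and 28 °C and 0 to 4 in 32 against 28 °C controls. Over all tested genes, leaving out each library gave 5 to 753 in 24 against 28 °C controls. It gave 3 to 446 for the response between 24 and 28 °C and 0 to 292 for LPS at 24 °C. Other list counts under alternatives, here and above, are given without each alternative's share of all tested genes. Nothing is read from them.

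Replicate numbers were not taken to pair libraries. Same-numbered LPS and control fish had correlations of -0.139 to 0.441 over 9 pairs. Differently numbered fish were not compared, so these values cannot tell whether the numbers mark pairs or a shared batch. With the replicate block all genes called fell from 440 to 20 in 24 against 28 °C controls. Direction was kept for fkbp5, klf9, tsc22d3 and sgk1 in every alternative for LPS at 24 °C and for 24 against 28 °C controls. Most of these groups did not overlap, and 30 of the 39 alternatives left out only 1 library. Such a fit could hardly change the direction, and the genes were chosen with these levels in view, so nothing is read from it. The members had 24 or more counts in every library. il12bb had 0 or 1 count in each 24 °C control, so lower levels of it were not detectable at this depth.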

Other observations

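Transcripts of cortisol synthesis were scarce in the spleen libraries. Of 12 matched genes of steroid-producing tissue, 5 had enough counts to be tested, and 0 of 5 were called for LPS against control at 24, 28 or 32 °C. Between 24 and 28 °C controls 1 of the 5 was higher at 24 °C, against 2.47% of all tested genes called in either direction. It was CYP11A1 (ENSDARG00000002347; 6.19 ± 1.65, edgeR adjusted p = 0.0420), a gene named here after its values were seen, whose enzyme starts steroid synthesis from cholesterol. It was at 88.1 CPM in 24 °C control replicate 4 and at 0 to 0.272 CPM in the other 4. mc2r, the receptor for the pituitary hormone ACTH, and cyp11c1, whose enzyme makes cortisol, had counts in every library, at up to 2.57 and 2.16 CPM of the unscaled total. hsd3b2 was at 0 in 28 of the 30 libraries and reached 44.5 CPM of the unscaled total in 24 °C control replicate 4. The summed list was at 193 CPM in 24 °C control replicate 4, the library that also held 6680 CPM of ovary markers. In it mc2r was at 0.421 CPM and cyp11c1 at 0.368 CPM, so the sum does not stand for cortisol synthesis. fkbp5 stood at 24.2 CPM there, within the range of its group, and a relation of fkbp5 to the list was not tested.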
